A study of Mus musculus with 9 samples.

Results

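TRAV3 and TRAV4 are 2 V-gene subgroups of the mouse T-cell receptor alpha (TRA) locus. Their chains were taken as every productive TRA contig whose first V call carried subgroup number 3 or 4. This gave 2258 contigs, 810 of TRAV3 and 1448 of TRAV4, of 23088 productive TRA contigs in 8 libraries. The 2 subgroups were selected on their shares of clonotypes, which differed between the genotypes in these libraries, so genotype differences in use are given below as description, without a test.

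Receptor chains were sequenced from single lymph node cells of female WT and 5xFAD mice aged 10 to 11 months. 5xFAD is a transgenic mouse model of Alzheimer's disease whose transgenes are driven in neurons by the Thy1 promoter. Nodes were deep cervical (dCLN), inguinal (iLN) or superficial cervical (sCLN), with 1 library per node and genotype, 6 in all. Tubes of tagged cells were pooled before capture, and the labels give neither the number of animals per library nor the strain of either genotype. A dCLN library with CD4 in its title and a WT label, and 1 library mixing the 3 nodes and both genotypes, are set beside these 6. A second CD4-titled library, labelled 5xFAD, shared 6829 barcodes with the first, which had 6905, and 682 of its 700 pairs of barcode and TRAV3 or TRAV4 junction. It was left out, and it held 691 such contigs. Pairs of the 8 libraries used shared 3 to 46 barcodes and 0 of these barcode and junction pairs. The 6 libraries held 1495 to 3664 productive TRA contigs each, and 1086 to 2726 distinct paired clonotypes. Gene expression was not analysed here, so the labelled cell type could not be checked against marker genes.

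A TRA chain is made in the thymus by joining a V gene to a J gene, with bases added or trimmed at the join, and the joined stretch forms CDR3. The first joins use V genes and J genes that lie next to each other, and later joins on the same chromosome reach V genes farther upstream and J genes farther downstream. In the mouse, part of the V region was duplicated, and the copies carry the suffixes D and N. TRAV4 genes encode the V-alpha 11 family, long studied in CD4 T cells that recognise cytochrome c, and TRAV3 genes encode the V-alpha 5 family.

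In the GRCm38 build both subgroups lie on chromosome 14, forward strand, with 12 functional genes and 5 pseudogenes. They begin with Trav3-1, from 52580665 to 52581213, and end with Trav3-4, from 53776956 to 53777576. Trav4d-3, Trav3d-3 and Trav4d-4 lie in the D block, and Trav4n-3, Trav3n-3 and Trav4n-4 in the N block. Trav4-4-dv10, which the contig tables call TRAV4-4/DV10, can also be joined in the delta locus; it lies from 53683647 to 53684177.

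V regions were read from the first base of the mature V gene to the base before the junction, and each distinct sequence was counted as a form. There were 16 forms with at least 10 contigs, and these held 2238 of the 2258 contigs. The other 20 contigs, all TRAV3, fell into 17 rarer forms. Of the 16 forms, 9 were identical to a GENCODE transcript of GRCm38, 5 in TRAV4 and 4 in TRAV3, and are called reference forms here. The other 7, 4 in TRAV4 and 3 in TRAV3, matched no transcript and are named by the allele that the contig tables gave them. None of the 16 had a stop codon (0 stops). The sequences below show the non-reference forms on which the results turn, each after its nearest reference form, with the bases that differ in capitals. They are shown 5' to 3' on the coding strand, read from the contigs.

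The most frequent non-reference TRAV4 form, called TRAV4-2*01, held 315 contigs and differed from the reference form of TRAV4-2 at 2 bases, both changing an amino acid. With positions counted from 1 at the first base of the mature V gene and the reference base first, these were G54C and G91A.
TRAV4-2 reference: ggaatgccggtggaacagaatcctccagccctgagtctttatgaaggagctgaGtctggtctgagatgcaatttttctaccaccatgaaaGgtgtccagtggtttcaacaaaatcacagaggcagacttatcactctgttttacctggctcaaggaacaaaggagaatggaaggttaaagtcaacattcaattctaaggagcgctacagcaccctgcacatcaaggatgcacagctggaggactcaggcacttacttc
TRAV4-2*01: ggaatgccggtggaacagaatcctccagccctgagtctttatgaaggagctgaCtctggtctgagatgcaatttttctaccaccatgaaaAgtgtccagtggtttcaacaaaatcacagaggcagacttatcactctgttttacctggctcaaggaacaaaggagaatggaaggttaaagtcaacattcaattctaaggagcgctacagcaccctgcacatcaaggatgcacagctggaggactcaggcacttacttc

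The TRAV4D-4*01 form, with 120 contigs, differed from the form shared by the reference genes TRAV4D-4 and TRAV4N-4 at 7 bases and 5 amino acids, and its CDR1 differed.
TRAV4D-4 or TRAV4N-4 reference: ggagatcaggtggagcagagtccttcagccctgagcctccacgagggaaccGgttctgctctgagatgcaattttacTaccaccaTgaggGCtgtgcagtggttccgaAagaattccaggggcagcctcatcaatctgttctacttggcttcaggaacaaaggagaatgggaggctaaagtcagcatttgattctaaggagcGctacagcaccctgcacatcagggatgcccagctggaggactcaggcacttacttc
TRAV4D-4*01: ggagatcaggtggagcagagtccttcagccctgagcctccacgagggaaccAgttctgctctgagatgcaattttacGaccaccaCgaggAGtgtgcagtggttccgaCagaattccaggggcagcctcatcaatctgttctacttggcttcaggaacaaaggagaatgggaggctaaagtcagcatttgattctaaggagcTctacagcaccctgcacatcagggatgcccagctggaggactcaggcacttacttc

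The leading non-reference TRAV3 form, here form a of TRAV3-1*01, held 173 contigs. It was called TRAV3-1*01 in the 6 libraries and TRAV3-1*03 in the CD4-titled and mixed ones. It differed from the TRAV3-1 reference at C3G, C92T, C101A and G215A, with C92T in CDR1 and 3 amino acids changed. Its median identity to the allele called was 0.982, the lowest of the 16 forms, and it stood 8 bases from the TRAV3-4 reference.
TRAV3-1 reference: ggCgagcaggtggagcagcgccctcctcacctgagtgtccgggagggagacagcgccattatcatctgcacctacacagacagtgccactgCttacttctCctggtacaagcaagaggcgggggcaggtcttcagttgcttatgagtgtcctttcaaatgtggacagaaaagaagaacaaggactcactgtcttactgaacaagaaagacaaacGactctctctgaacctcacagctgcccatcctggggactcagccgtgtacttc
TRAV3-1*01 form a: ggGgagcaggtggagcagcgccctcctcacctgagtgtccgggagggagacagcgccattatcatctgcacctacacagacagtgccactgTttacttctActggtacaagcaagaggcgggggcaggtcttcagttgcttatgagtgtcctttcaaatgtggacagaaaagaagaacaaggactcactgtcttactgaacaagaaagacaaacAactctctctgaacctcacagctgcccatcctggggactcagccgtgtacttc

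The TRAV3D-3*01 form, with 105 contigs, differed at 1 base, G58T, from the TRAV3-3 reference and at 5 bases from the reference form shared by TRAV3D-3 and TRAV3N-3, whose name it carries.
TRAV3-3 reference: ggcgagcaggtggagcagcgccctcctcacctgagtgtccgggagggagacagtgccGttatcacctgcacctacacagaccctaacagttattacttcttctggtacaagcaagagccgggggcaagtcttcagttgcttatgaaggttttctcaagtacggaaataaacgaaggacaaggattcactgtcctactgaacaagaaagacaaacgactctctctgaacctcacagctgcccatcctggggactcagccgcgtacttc
TRAV3D-3*01: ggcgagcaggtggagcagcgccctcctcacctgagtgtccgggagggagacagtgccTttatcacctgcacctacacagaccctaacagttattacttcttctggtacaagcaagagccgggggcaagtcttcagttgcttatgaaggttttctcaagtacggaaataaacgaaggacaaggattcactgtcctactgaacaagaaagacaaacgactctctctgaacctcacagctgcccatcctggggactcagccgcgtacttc

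TRAV4 chains of the WT libraries mixed reference and non-reference forms, whereas those of the 5xFAD libraries held non-reference forms only. Reference forms made up 58.5%, 56.9% and 64.96% of TRAV4 contigs in dCLN, sCLN and iLN of WT (exact Clopper-Pearson 95% intervals 49.04 to 67.5, 47.4 to 66.1 and 56.4 to 72.9), a mean of 60.1% ± 4.28 (SD, n = 3 libraries). In 5xFAD, 0 of 206 TRAV4 contigs in dCLN, 0 of 125 in sCLN and 0 of 87 in iLN matched. The exact 95% intervals allow shares of up to 1.77%, 2.91% and 4.15%. The genotypes did not overlap. In the CD4-titled library 32.5% matched (27.97 to 37.2), a value between the genotypes, and in the mixed library 94.7% (91.03 to 97.1), above each of the other libraries. Intervals and limits here cover counting error only.

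TRAV3 showed the same order. Reference forms made up 71.7%, 76.7% and 71.6% of TRAV3 contigs in dCLN, sCLN and iLN of WT, a mean of 73.4% ± 2.93 (SD, n = 3), and 9.84%, 13.8% and 10.5% in 5xFAD, a mean of 11.4% ± 2.11 (SD, n = 3). All 16 matching TRAV3 contigs of 5xFAD had the TRAV3-3 form. The CD4-titled library stood at 52.8% (46.8 to 58.7) and the mixed library at 93.8% (89.7 to 96.7). Pooled over the other TRAV subgroups, the same share was 53.0% to 53.9% in the WT libraries and 13.4% to 15.9% in 5xFAD. TRAV4 of 5xFAD lay below this pooled share, and it was not set against each other subgroup singly. The genotype contrast of use chose these subgroups, and no test was made of this difference.

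Among single forms, the 5 TRAV4 reference forms had 0 contigs in each 5xFAD library. In WT the TRAV4-4/DV10 reference form had 14, 27 and 33 contigs in dCLN, sCLN and iLN, and the form shared by TRAV4D-4 and TRAV4N-4 had 21, 23 and 30. The TRAV4-3 reference form had 24, 9 and 15, that of TRAV4D-3 and TRAV4N-3 had 7, 6 and 8, and that of TRAV4-2 had 3, 1 and 3. The non-reference TRAV4 forms were present in all 6 libraries. TRAV4-2*01 had 16, 17 and 14 contigs in WT and 71, 36 and 28 in 5xFAD, and TRAV4D-3*04 had 18, 19 and 16 against 59, 54 and 30. TRAV4D-3*01, with 10, 6 and 12 against 43, 25 and 15, and TRAV4D-4*01, with 5, 8 and 6 against 33, 10 and 14, completed the set.

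In TRAV3, the form shared by TRAV3D-3 and TRAV3N-3 led in WT, with 33, 24 and 51 contigs in dCLN, sCLN and iLN, and had 0 in each 5xFAD library. Form a led in 5xFAD, with 41, 37 and 13 contigs, against 11, 4 and 13 in WT. As shares of TRAV3 contigs, form a made up 67.2%, 63.8% and 68.4% in dCLN, sCLN and iLN of 5xFAD and 23.9%, 9.3% and 14.8% in WT. The TRAV3-3 reference form was rare in the 6 libraries, with 0 to 10 contigs, and led in the CD4-titled library with 108 contigs of 284. TRAV3D-3*01 had 0 to 8 contigs in the 6 libraries and 71 in the CD4-titled library. Form b of TRAV3-1*01, the rarest non-reference form with 19 contigs, the TRAV3-1 reference with 28 and the TRAV3-4 reference with 14 had at most 2 contigs in any of the 6 libraries.

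**Figure D1:**
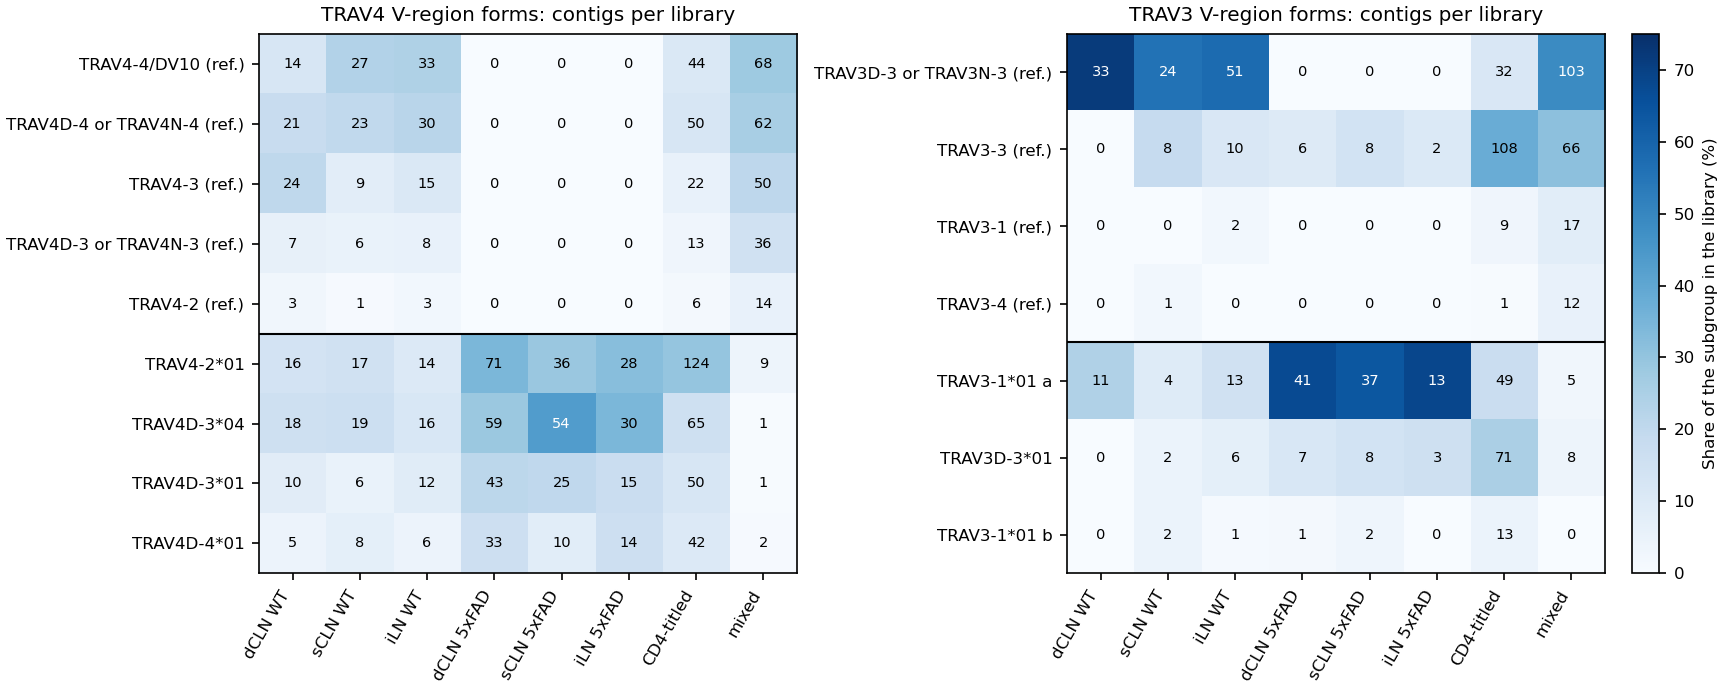
Contigs of each V-region form (rows) in each library (columns), with the number of contigs printed in each cell and the share of the subgroup's contigs in that library as colour, in percent. Reference forms, marked ref., lie above the black line; the TRAV4 cells above it are all 0 in the 5xFAD libraries.

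The gene and allele names followed the calling as well as the sequence. The TRAV4-3 reference form was called TRAV4D-3*03 in the WT libraries, where it had 24, 9 and 15 contigs, and TRAV4-3*03 in the CD4-titled and mixed libraries, where it had 22 and 50. The TRAV4-4/DV10 reference form was likewise called TRAV4D-4*02 in the WT libraries and TRAV4-4/DV10*02 in the other 2. TRAV4N-3 was named first in 7, 6 and 8 contigs of the WT libraries and in 0 of the other 5 libraries, and no TRAV3N name came first in any. A D or N suffix stood in 77.97% (D) and 5.93% (N) of TRAV4 calls in dCLN WT, and in 65.5% (D) of those in dCLN 5xFAD. In TRAV3 a D suffix stood in 73.9%, 62.8% and 65.9% of calls in the WT libraries and 14.8%, 13.8% and 15.8% in 5xFAD. Sequences called D or N can therefore be plain copies in the reference, and copies are described here by sequence form.

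Calls that named more than 1 gene equalled in number, in each of the 6 libraries, the contigs of TRAV3D-3 or TRAV3N-3 and of TRAV4D-4 or TRAV4N-4. They made up 71.7%, 55.8% and 57.95% of TRAV3 contigs and 17.8%, 19.8% and 21.9% of TRAV4 contigs in dCLN, sCLN and iLN of WT, and 0 contigs of either subgroup in 5xFAD. The TRAV4D-3 or TRAV4N-3 form, also shared by D and N copies, had 7, 6 and 8 contigs in WT beyond this match. Mean V identity, the share of aligned V bases equal to the allele called, was 0.996 ± 0.0011 for TRAV3 in WT and 0.987 ± 0.00066 in 5xFAD (SD, n = 3 libraries each). For TRAV4 it was 0.998 ± 0.00028 in WT and 0.996 ± 0.0008 in 5xFAD. An identity of exactly 1 was found in 73.5% ± 7.30 of WT and 24.5% ± 2.77 of 5xFAD TRAV3 contigs, and in 82.4% ± 2.01 and 61.2% ± 6.34 of TRAV4 contigs (SD, n = 3). A form can lack a match in GRCm38 and still equal a listed allele: the median identity was 1 for TRAV4-2*01, TRAV4D-3*01, TRAV4D-4*01 and TRAV3D-3*01, and 0.989 for TRAV4D-3*04.

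Cells with 2 productive alpha chains showed whether both kinds of sequence occurred in 1 cell. Of the cells with 1 beta chain and 2 alpha chains, at least 1 of them TRAV3 or TRAV4, 14, 12 and 23 came from dCLN, sCLN and iLN of WT. In these, 11, 10 and 18 cells carried 1 alpha chain that matched the reference and 1 that did not. In 5xFAD, 22 of 28 such cells in dCLN, 15 of 17 in sCLN and 4 of 4 in iLN had no matching chain. The CD4-titled library held 59 cells with 1 matching chain of 102, 32 with none and 11 with both. In the mixed library 59 of 65 had both. Over all cells with 2 alpha chains, 47 of 55, 52 of 64 and 91 of 109 in the WT libraries had 1 matching chain, and 130 of 175, 136 of 186 and 21 of 37 in 5xFAD had none. Doublets were not called beyond the limit on chains per barcode, so 2 alpha chains may also come from 2 cells.

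**Figure D2:**
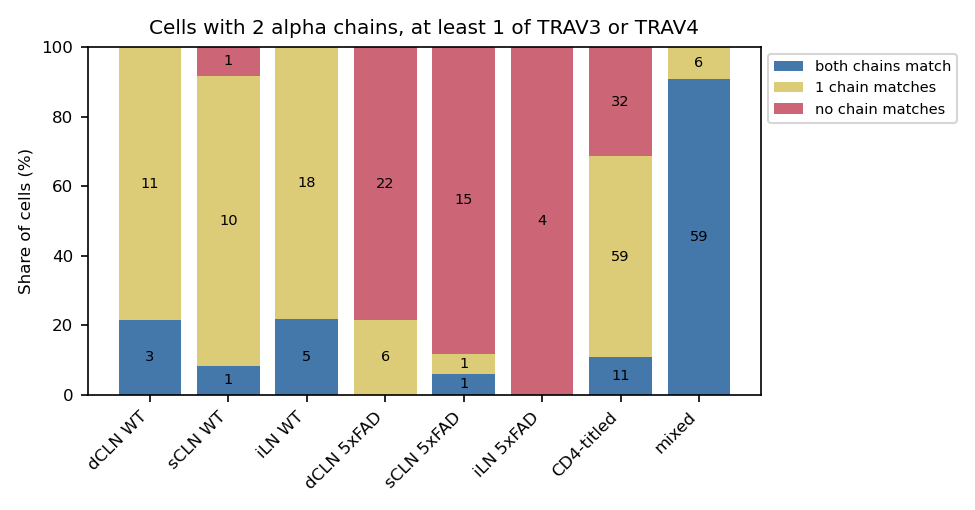
Cells with 2 alpha chains of which at least 1 was TRAV3 or TRAV4, per library, as the percentage in which both, 1 or none of the chains matched the GRCm38 reference; the numbers in the bars are cells. In WT most cells had 1 matching chain (11 of 14, 10 of 12 and 18 of 23), and in 5xFAD most had none (22 of 28, 15 of 17 and 4 of 4).

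The use of TRAV4, as a share of distinct paired clonotypes, was 7.84%, 7.92% and 6.32% in the dCLN, sCLN and iLN libraries of WT, with exact 95% intervals of 6.37 to 9.53, 6.38 to 9.69 and 5.196 to 7.597. In 5xFAD it was 5.98% (5.12 to 6.94), 3.85% (3.10 to 4.73) and 5.52% (4.26 to 7.003). The 3 values of WT lay above the 3 of 5xFAD, and the mean difference of 5xFAD minus WT was -2.24 percentage points ± 1.67 (SD, n = 3 nodes). TRAV3 made up 3.07% (2.16 to 4.22), 2.95% (2.02 to 4.13) and 4.03% (3.14 to 5.09) in WT, and 1.83% (1.36 to 2.41), 1.97% (1.44 to 2.63) and 1.58% (0.937 to 2.48) in 5xFAD, a mean difference of -1.56 ± 0.79 points (SD, n = 3). With ambiguous calls left out, the TRAV3 difference turned to 0.11 points. Such calls made up 55.8% to 71.7% of TRAV3 contigs in the WT libraries and 0% in 5xFAD. Leaving them out therefore took TRAV3 chains from WT alone and cannot check this difference. The CD4-titled library stood at 6.93% for TRAV4 and 4.30% for TRAV3, and the mixed library at 6.42% and 6.21%. These differences chose the subgroups. Such a separation was not particular to them. The shares of TRAV12 and TRAV19 were also higher in each WT library than in every 5xFAD library. Those of TRAV6, TRAV8 and TRAV13 were lower in each WT library than in every 5xFAD library.

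**Figure D3:**
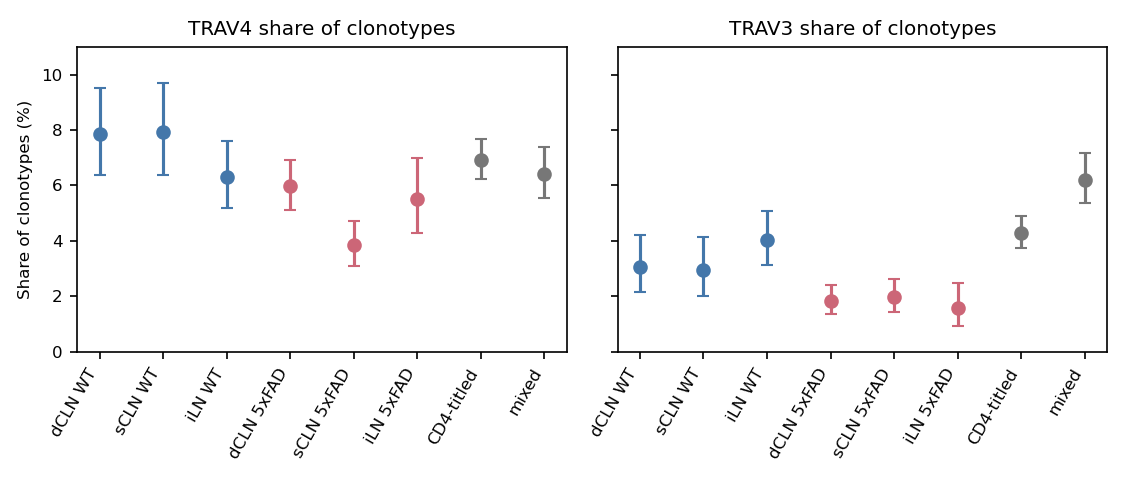
Share of distinct paired clonotypes that used TRAV4 (left) and TRAV3 (right), in percent, per library; points are single libraries and bars exact 95% binomial intervals, which cover counting error only. WT is blue, 5xFAD red, and the CD4-titled and mixed libraries grey. Each WT point lies above every 5xFAD point in both panels, which is the contrast that selected the subgroups.

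In the WT libraries, TRAV3 made up a larger share of chains that matched the reference than of chains that did not. Of all matching TRA contigs in dCLN, sCLN and iLN of WT, 3.88%, 4.09% and 5.36% were TRAV3, against 1.85%, 1.45% and 2.62% of non-matching ones. The exact 95% intervals of both shares overlapped in dCLN and did not in sCLN and iLN. In 5xFAD, TRAV3 made up 1.25%, 2.06% and 0.855% of matching contigs and 1.73%, 1.90% and 1.28% of non-matching ones, with overlapping intervals in each node. The range of the non-matching shares overlaps that of WT. The CD4-titled library had 7.09% of matching and 3.41% of non-matching contigs, and in the mixed library the order was the other way, at 5.76% and 7.30%, with overlapping intervals. TRAV4 made up 8.12%, 8.18% and 7.57% of matching and 6.97%, 7.27% and 5.03% of non-matching contigs in WT, and 6.47%, 4.75% and 6.56% of non-matching contigs in 5xFAD. The non-matching TRAV4 shares also overlapped between the genotypes. For TRAV4 the order was the other way in the CD4-titled library, at 6.38% of matching and 7.14% of non-matching contigs. It was so in the mixed library too, at 6.69% and 7.30%, with overlapping intervals in both. Median UMIs per contig were 5 to 6 for TRAV4 in WT and 7 to 8 in 5xFAD, and 5 to 5.5 and 5 to 6 for TRAV3; their part in these shares was not tested.

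Node types gave no call for either subgroup. TRAV4 had log2 fold changes of 0.26 (SE 0.19) for dCLN minus iLN, -0.07 (SE 0.20) for sCLN minus iLN and 0.33 (SE 0.19) for dCLN minus sCLN, with edgeR adjusted p of 0.94, 0.999 and 0.98. TRAV3 had -0.16 (SE 0.30), -0.13 (SE 0.31) and -0.03 (SE 0.30), with the same adjusted p in each contrast. Of 94 V and J features tested, 0 (0%) passed an adjusted p of 0.05 with edgeR in each contrast, and 3 (3.19%), 2 (2.13%) and 2 (2.13%) had an unadjusted p under 0.05. DESeq2 gave 0 calls too. Of the 17 other TRAV subgroups 0 passed, with median values of -0.05, 0.10 and -0.06, against 0.01, 0.03 and -0.002 over all features. The residual spread comes from how genotype differences vary over nodes, and does not measure that between animals.

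The other subgroups whose clonotype shares varied most like TRAV3 over the 6 libraries were TRAV12, TRAV14 and TRAV4, with root mean square log2 distances of 0.31, 0.36 and 0.40 after centring. For TRAV4 they were TRAV21 at 0.28, TRAV7 at 0.30 and TRAV12 at 0.31. In each case 13 subgroups were compared. The clonotype share of TRAV12 was 9.17% ± 0.87 in WT against 7.06% ± 0.92 in 5xFAD, and that of TRAV21 was 1.77% ± 0.08 against 1.78% ± 0.47 (SD, n = 3 libraries each).

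The J gene to which a chain was joined differed widely between forms. TRAJ genes are numbered from the far end of the J cluster, so high numbers lie next to the V genes. Trav3-4, which lies 377 kb from the first J gene in GRCm38, had a mean TRAJ number of 43.4 ± 9.09 (SD over 14 distinct rearrangements), and TRAV4-4/DV10, at 471 kb, had 42.6 ± 10.9 (171 rearrangements). TRAV3-3, at 488 kb, had 34.1 ± 12.8 (203), and TRAV4-3, at 556 kb, had 35.2 ± 11.8 (113). TRAV4-2, at 736 kb, had 24.6 ± 13.3 (25). The forms shared by D and N copies, whose copies lie 852 to 1255 kb away, had 21.0 for TRAV3D-3 or TRAV3N-3, 21.8 for TRAV4D-4 or TRAV4N-4 and 23.6 for TRAV4D-3 or TRAV4N-3. TRAV3-1, the farthest at 1574 kb, had 22.9 ± 10.1 (26). Thus the 4 forms within 556 kb had means of 34.1 or more, and the other 5 had 24.6 or less. Genes numbered 40 or above made up 68.4% of joins of TRAV4-4/DV10 (exact 95% interval 60.9 to 75.3) and 7.83% of those of TRAV3D-3 or TRAV3N-3 (4.70 to 12.1). Rearrangements of 1 form share libraries and are not replicates of it.

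**Figure D4:**
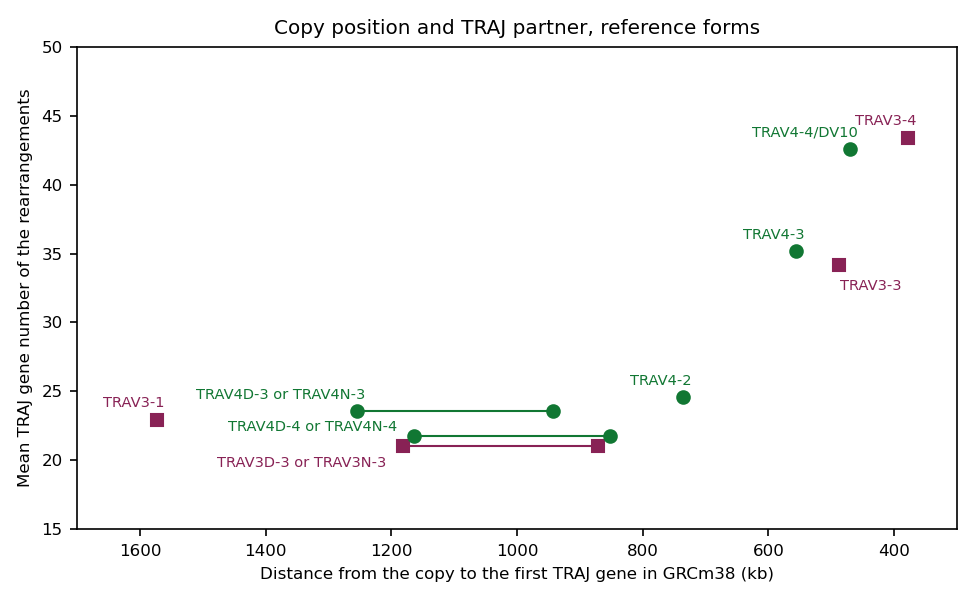
Mean TRAJ gene number of the distinct rearrangements of each reference form against the distance of its gene copies from the first TRAJ gene in GRCm38 (kb; the axis runs toward the J genes). Circles are TRAV4 and squares TRAV3, and a line joins D and N copies that share 1 sequence; the forms within 556 kb have means of 34.1 or more and the others 24.6 or less.

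Non-reference forms covered the same range, although their positions are not known from these data. Form a had a mean TRAJ number of 43.96 ± 11.8 (171 rearrangements) with 66.7% numbered 40 or above (59.1 to 73.7), close to the values of the TRAV3-4 reference and far from the 22.9 of the TRAV3-1 reference, whose name it carries. Per library its mean ran from 39.5 to 47.5, whereas that of TRAV3D-3 or TRAV3N-3 ran from 18.1 to 23.4. TRAV4D-3*04 had 32.7 ± 14.4 (254), between the 23.6 of TRAV4D-3 or TRAV4N-3 and the 35.2 of TRAV4-3. TRAV4-2*01 had 27.4 ± 13.1 (303) and form b 27.0 ± 10.5 (19). TRAV4D-3*01 had 21.2, TRAV3D-3*01 had 21.4 and TRAV4D-4*01 had 21.7. No non-reference TRAV4 form reached the 42.6 of TRAV4-4/DV10.

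**Figure D5:**
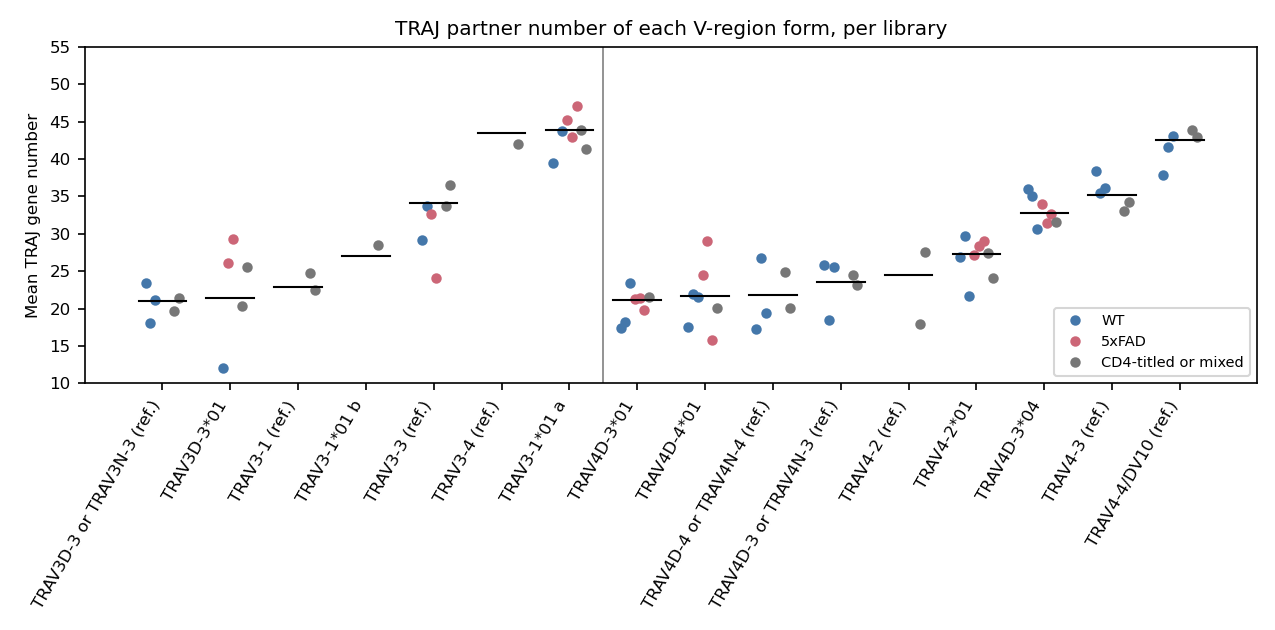
Mean TRAJ gene number of each V-region form in each library with at least 5 distinct rearrangements (points: WT blue, 5xFAD red, CD4-titled and mixed grey) and over all 8 libraries (black bars), TRAV3 on the left and TRAV4 on the right. Over all libraries, form a of TRAV3-1*01 stands at 43.96, the TRAV3-4 reference form at 43.4 and the TRAV4-4/DV10 reference form at 42.6, above the other 13 forms.

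For the subgroups as a whole, the mean TRAJ number differed more between the genotypes for TRAV3 than for TRAV4 or the pooled other chains. No other subgroup was measured singly. For TRAV3 it was 27.7, 26.0 and 25.7 in dCLN, sCLN and iLN of WT and 39.9, 37.1 and 41.2 in 5xFAD, with no overlap. The TRAV3 means were 26.5 ± 1.09 and 39.4 ± 2.08 (SD, n = 3), while other TRA chains had 30.9 ± 0.72 and 32.1 ± 0.37. The other chains did not overlap either, with a highest WT value of 31.68 and a lowest 5xFAD value of 31.75. For TRAV4 the values were 28.8, 31.4 and 29.6 in WT and 27.6, 28.6 and 26.5 in 5xFAD, also without overlap but lower in 5xFAD. The CD4-titled library had 30.1 for TRAV3 and 28.3 for TRAV4, and the mixed library 28.2 and 30.6. Within dCLN, sCLN and iLN of WT, reference TRAV3 chains had 23.4, 21.9 and 23.2 and the other TRAV3 chains 38.0, 39.4 and 31.9. In 5xFAD the 6, 8 and 2 reference rearrangements had 32.7, 24.1 and 43.0 and the others 40.7, 39.2 and 40.9, so that iLN had the other order. The CD4-titled library had 30.5 for reference and 29.7 for other chains, also the other order, and the mixed library 28.0 and 32.2.

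Set against the other TRA chains of the same library, no single TRAJ partner passed the test. Of 42 TRAJ genes, 0 (0%) passed an adjusted p of 0.05 with edgeR for TRAV4, with 6 (14.3%) at an unadjusted p under 0.05, and 0 (0%) for TRAV3, with 2 (4.76%). DESeq2 gave 0 for both, with 5 and 2 at an unadjusted p under 0.05. For TRAV4, TRAJ48 had a log2 fold change of -1.24 (SE 0.45; edgeR adjusted p = 0.14). It joined 1.79%, 3.57%, 0%, 1.01%, 0.855% and 1.16% of TRAV4 rearrangements in dCLN, sCLN and iLN of WT and then of 5xFAD, against 2.56% to 4.05% of other chains. Of the other TRAJ partners of TRAV4 named by size, TRAJ21 had 0.77, TRAJ4 0.77, TRAJ13 0.72 and TRAJ6 0.57. TRAJ57 had -0.69, TRAJ45 -0.64 and TRAJ31 -0.52, with edgeR adjusted p between 0.30 and 0.47 over these 7. TRAJ57 stood at -1.54 without dCLN WT and -0.44 without iLN 5xFAD, TRAJ21 at 0.46 without dCLN 5xFAD, and TRAJ6 at 0.33 without dCLN WT. TRAJ15, the only gene that the size rule named for TRAV3, had 0.58 (edgeR adjusted p = 0.95) and turned to -0.12 with TMM scaling. Of the 14 TRAJ genes numbered 40 or above, 0 passed. For TRAV4, 11 had negative values and 3 positive ones, with a median of -0.37 against -0.03 over all 42, and for TRAV3 there were 7 of each, with a median of -0.01 against -0.04.

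TRAJ7, outside the size rule and named after its value was seen, had the lowest p for TRAV4, with a log2 fold change of -1.86 (SE 0.60; edgeR adjusted p = 0.097). It passed with the CD4-titled and mixed libraries added.

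Beta chains paired with the subgroups gave no call either. Of 33 TRBV and TRBJ genes, 0 (0%) passed for TRAV4, with 4 (12.1%) at an unadjusted p under 0.05, and 0 (0%) for TRAV3, with 3 (9.09%), in edgeR. DESeq2 gave 0 for both, with 2 and 3 at an unadjusted p under 0.05. TRBV15 accompanied 1.09%, 4.65%, 3.81%, 3.07%, 5.68% and 3.17% of TRAV4 clonotypes in the 6 libraries, in the order above, and 0.872% to 2.89% of others. Its log2 fold change was 1.02 (SE 0.35, edgeR adjusted p = 0.11). In 5 of 6 libraries it had that direction, the least that the size rule accepts. TRBV29 accompanied 1.09%, 3.49%, 1.90%, 3.68%, 2.27% and 1.59% of TRAV4 clonotypes and 4.04% to 6.60% of others, with no overlap and a log2 fold change of -1.01 (SE 0.37; adjusted p = 0.11). The other partners named by size for TRAV4 were TRBV19 at -0.67, TRBJ1-4 at 0.43, TRBV16 at 0.40, TRBV4 at 0.29, TRBJ2-4 at -0.28 and TRBV14 at 0.25, with adjusted p of 0.45 to 0.68.

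For TRAV3, TRBV31 accompanied 16.7%, 18.75%, 10.4%, 12.0%, 15.6% and 16.7% of clonotypes, against 7.11% to 10.7% of others. Its log2 fold change was 0.66 (SE 0.23, edgeR adjusted p = 0.15), positive in 6 of 6 libraries. The size rule itself asks for the same direction in at least 5 of 6. TRBJ1-5 accompanied 11.1%, 6.25%, 2.99%, 6.00%, 4.44% and 5.56%, against 2.17% to 3.45% of others, with 1.11 (SE 0.39; adjusted p = 0.15), also positive in 6 of 6. These rest on 35 and 14 TRAV3 clonotypes in all, and TRBJ1-5 stood at 0.34 with the CD4-titled and mixed libraries added. The remaining partners named by size, TRBJ2-5 at -0.43, TRBV14 at 0.42, TRBJ2-3 at 0.33, TRBV1 at 0.30 and TRBV13-2 at -0.28, had an adjusted p of 0.75. TRBV15, outside the size rule and named after its value was seen, had the lowest p for TRAV3. Its log2 fold change was -6.68 (SE 2.32, edgeR adjusted p = 0.15), against 1.02 for TRAV4.

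Junctions are the stretches from the conserved cysteine codon to the codon at the position where most J genes encode phenylalanine or tryptophan. For these measures, 12 comparisons with the other TRA chains of each library were made. TRAV4 junctions measured 40.2, 39.9 and 40.1 nucleotides on average in dCLN, sCLN and iLN of WT and 39.7, 40.4 and 39.1 in 5xFAD. They were shorter than those of other chains in 6 of 6 libraries, by a mean difference of -0.60 nucleotides ± 0.41 (SD, n = 6; exact two-sided sign-flip permutation test, p = 0.031, the smallest 6 libraries allow, and 0.125 after Benjamini-Hochberg adjustment). TRAV3 junctions differed by 0.08 ± 0.36 nucleotides (exact p = 0.66, adjusted 0.84). The bases added between V and J numbered 2.41 ± 0.38 for TRAV3 and 2.70 ± 0.11 for other chains (SD, n = 6 libraries), lower in 6 of 6 (exact p = 0.031, adjusted 0.125). Without iLN 5xFAD the TRAV3 difference of -0.29 was -0.14. For TRAV4 they numbered 2.80 ± 0.47, a difference of 0.09 ± 0.55 (exact p = 0.78, adjusted 0.84). Junctions with 0 added bases made up 21.5% of TRAV3, 19.1% of TRAV4 and 18.5% of other junctions, with adjusted exact p of 0.375 and 0.84.

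Partners from the TRBJ2 cluster were found in 63.2% ± 2.40 of TRAV4 clonotypes and 67.2% ± 2.12 of others (SD, n = 6 libraries), lower in 6 of 6 libraries by -4.02 points ± 2.75 (exact p = 0.031, adjusted 0.125). For TRAV3 the difference was -1.51 ± 10.9 points (exact p = 0.75, adjusted 0.84). The mean TRAJ number differed by -2.76 ± 2.37 for TRAV4 (lower in 5 of 6 libraries; exact p = 0.0625, adjusted 0.19) and by 1.43 ± 6.64 for TRAV3 (higher in 3 of 6; exact p = 0.625, adjusted 0.84). The share of TRAJ genes numbered 40 or above differed by -6.95 ± 7.10 points for TRAV4 (exact p = 0.094, adjusted 0.225) and by 4.95 ± 19.0 for TRAV3 (exact p = 0.56, adjusted 0.84). None of the 12 passed after adjustment over these 6 libraries.

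Some junctions were found in several libraries with the same J gene. Of 731 distinct TRAV3 junctions 37 occurred in at least 2 libraries, or 5.06% (exact 95% interval 3.59 to 6.91), of 1248 TRAV4 junctions 88, or 7.05% (5.69 to 8.62), and of 18446 junctions of other subgroups 1114, or 6.04% (5.70 to 6.39). Shared junctions had 0 added bases in 51.4% of cases for TRAV3 and 42.0% for TRAV4, against 15.6% and 17.1% of all distinct junctions. The examples below are among the most widely shared. Bases that the deposited alignment left between V and J, where there were any, are in capitals.
TRAV4 with TRAJ13: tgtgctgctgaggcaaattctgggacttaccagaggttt
TRAV4 with TRAJ24: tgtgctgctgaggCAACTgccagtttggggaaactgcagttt
TRAV4 with TRAJ12: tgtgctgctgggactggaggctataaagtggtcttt
TRAV3 with TRAJ7: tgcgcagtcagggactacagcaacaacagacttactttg
TRAV3 with TRAJ56: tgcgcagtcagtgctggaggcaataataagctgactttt

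The TRAJ13 junction was found in 5 libraries, dCLN of both genotypes, sCLN 5xFAD, the CD4-titled and the mixed one, in 4 different V forms. The TRAJ24 junction, with 5 bases between V and J in the deposited alignment, occurred once each in dCLN and sCLN of both genotypes, also in 4 V forms. Whether these 5 bases belong to the germline J gene was not checked. The TRAJ12 junction was found in dCLN of both genotypes, the CD4-titled and the mixed library, in 4 V forms. The TRAV3 junction with TRAJ7 occurred in the 3 WT libraries and the mixed one, and that with TRAJ56 in iLN WT, dCLN and iLN 5xFAD and the CD4-titled library. No cell barcode was shared with the same junction, so these were separate cells.

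Repeated clonotypes were few. Of TRAV4 cells, 8 of 96 in dCLN WT, 6 of 89 in sCLN WT and 6 of 108 in iLN WT belonged to clones of 2 cells, against 0 of 163, 2 of 89 and 0 of 63 in 5xFAD, where 0 of 163 allows up to 1.84%. Of TRAV3 cells, 4 of 38, 0 of 32 and 2 of 68 did so in WT and 0 of 50, 0 of 45 and 0 of 18 in 5xFAD. Other chains stood at 8.60%, 6.69% and 2.84% of cells in WT and 1.27%, 3.74% and 1.68% in 5xFAD. The largest clone of a member in any library had 6 cells, a TRAV4 clone of the CD4-titled library, where 27 of 350 TRAV4 cells (7.71%), 13 of 215 TRAV3 cells (6.05%) and 192 of 4365 other cells (4.40%) belonged to clones.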

How the data were processed

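Productive TRA and TRB contigs of 8 single-cell libraries were analysed from 1 contig table per sample. The submitters' processing notes list mm10 as build, with Seurat 4.1.0 and Cell Ranger 6.0.1 as tools, and do not say what each was used for. The V and J aligner is not given in the sources used here. Per the file headers, each contig has deposited counts of UMIs and reads, which were not normalized. V identity was deposited as the fraction of aligned V bases that match the allele called. Lengths of junctions and of added bases, in nucleotides, are other values that the authors deposited.

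A cell was a barcode with 1 productive TRB chain and 1 or 2 TRA chains, keeping the TRA chain with more UMIs. A clonotype was a distinct pair of TRA and TRB genes and junctions, and a rearrangement a distinct TRAV subgroup, TRAJ gene and TRA junction. V regions were compared with V transcripts of GENCODE vM21 (GRCm38), and a match meant identity at every base. Added bases were those between V and J. Cells are not replicates, and each node and genotype gave 1 library, so p-values measure only the spread between these libraries, which may be technical.

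Node types were compared with edgeR 4.0.16 (quasi-likelihood, R 4.3.3) on clonotype counts with genotype as covariate. TRAJ and beta partners were compared between members and other chains with library as block, leaving out the other of the 2 subgroups. Totals were offsets, features with under 10 counts were left out, and p-values were adjusted over all features at a threshold of 0.05. Junction measures used an exact sign-flip permutation test over 6 libraries, adjusted over 12 comparisons. Both tests were checked on simulated data. Intervals are exact 95% binomial, and the limit given for a count of 0 is the upper end of this interval. Partners were named if past the threshold, and otherwise by the largest fitted change, up to 8 per fit, among those with the same direction in 5 of 6 libraries and at least 10 member counts. Likeness used subgroups with a mean of at least 20 clonotypes. Alternatives were DESeq2 1.42.0, TMM factors, no filter, other counted units, a minimum of 2 UMIs, ambiguous calls left out, other sets of libraries and each library left out. The subgroups, V forms and lists were chosen with earlier results of these data known.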

Additional observations from a re-analysis of the deposited data

Results flagged for a closer look

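TRAV3 chains had lower TRAJ gene numbers than other TRA chains in 3 of 3 WT libraries, by a mean of -4.46 ± 0.65, and higher ones in 3 of 3 5xFAD libraries, by 7.31 ± 2.38 (SD, n = 3). The share of TRAJ genes numbered 40 or above likewise differed by -11.3 points ± 0.19 in WT and by 21.2 points ± 10.5 in 5xFAD. TRAV4 chains had more added bases than other chains in 3 of 3 WT libraries, by 0.53 nucleotides ± 0.42, and fewer in 3 of 3 5xFAD libraries, by -0.34 ± 0.07. In these 3 results every WT library moved one way and every 5xFAD library the other. They were picked for these opposite directions from among all the junction measures compared for TRAV3 and TRAV4. The other chains were pooled, and no other subgroup was measured singly. The TRAV3 share of TRAJ genes numbered 40 or above is taken from the same TRAJ numbers as the TRAV3 mean, so it is not a separate result. The difference between the genotypes was not tested. Added bases are counted after the V call, and reference TRAV4 forms had other allele names in WT than in the CD4-titled and mixed libraries. The part of the calls in the added bases was not tested.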

How the results depend on the processing

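Replicate numbers could not serve as a block, because each node and genotype gave 1 library. The edgeR partner fits paired members with other chains by library, and the node fits used genotype as covariate. The sign-flip tests used differences within each library. With the CD4-titled and mixed libraries added, the TRAV4 junction difference of -0.76 nucleotides and the TRBJ2 partner difference of -3.90 points passed (exact permutation test, adjusted p = 0.047 each). TRAV3 junction length turned to -0.073, TRAV3 TRBJ2 partners to 1.11 points and TRAV4 added bases to -0.0034. In the same 8 libraries 1 partner passed in each of 3 fits: TRAJ7 for TRAV4, TRAJ5 for TRAV3 and TRBV15 for TRAV4 (0.91, edgeR adjusted p = 0.035). TRAJ5 and TRAJ7 were named after their values were seen. In WT alone TRAV3 junction length stood at -0.12, its TRAJ number at -4.46, its share of TRAJ genes numbered 40 or above at -11.3 and TRAV4 junctions with 0 added bases at -1.14. In 5xFAD alone TRAV4 added bases stood at -0.34. The TRAV3 share difference turned to 0.11 points without ambiguous calls, a setting that took TRAV3 chains from WT alone. TRAV3 dCLN minus sCLN turned to 0.0075 with cells counted. Among single partners, TRAJ57 turned to 0.054 in WT, TRAJ15 to -0.12 with TMM, and for TRAV4 TRBV4 to -0.030 in 5xFAD and TRBV14 to -0.019 in 8 libraries. For TRAV3, TRBJ2-5 turned to 0.012, TRBV1 to -0.12 and TRBV13-2 to 0.10 in 8 libraries, and TRBJ2-3 to -0.14 without ambiguous calls and -0.34 in 5xFAD. Values that kept their sign but moved by over 1.5 times in 8 libraries included TRAJ48 at -0.54 and TRBV29 at -0.49 for TRAV4 and TRBJ1-5 at 0.34 for TRAV3. The cause was not tested.

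Leaving out each library in turn gave -0.20 to 8.24 points for TRAV3 TRAJ genes numbered 40 or above, -0.12 to 2.75 for its TRAJ number, -4.37 to 1.47 points for its TRBJ2 partners and -0.032 to 0.17 nucleotides for its junctions. For TRAV4 it gave -0.088 to 0.20 added bases and -0.36 to 2.53 points of junctions with 0 added. Without sCLN WT TRAV3 TRBV14 stood at 0.12, TRBJ2-3 at 0.023 and TRBV13-2 at -0.14, and without sCLN 5xFAD TRBJ2-5 at -0.75, TRBJ2-3 at 0.54 and TRAV4 TRBV4 at 0.49. Without dCLN WT TRAV3 TRBV14 stood at 0.64. Node values ran from -0.44 to 0.25, -0.40 to 0.28 and -0.22 to 0.20 for TRAV3 and from -0.0023 to 0.48, -0.44 to 0.28 and -0.064 to 0.66 for TRAV4 (dCLN minus iLN, sCLN minus iLN, dCLN minus sCLN). TRAV4 TRAJ partners past the threshold numbered 0 to 3; the 3, TRAJ12, TRAJ48 and TRAJ7, passed without sCLN WT, where TRAJ48 stood at -1.75. The genotype differences kept their sign, at -1.76 to -1.21 points for TRAV3 and -2.76 to -1.61 for TRAV4. Over all alternatives 349 values of single partners kept their direction and side of the threshold, 9 changed direction and 2 came to pass. Of the other results 261 kept their direction and side of the threshold, or their count. Among the rest of these, 27 changed direction, 4 changed their count and 2 came to pass. No tested value passed in the main setting, so keeping its side meant staying short of the threshold. TRAV3 rests on 18 to 67 clonotypes per library of the 6, which limits its precision.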

Other observations

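Added bases of TRAV4 differed by form within WT. Reference forms had means of 3.26, 4.22 and 3.65 nucleotides in dCLN, sCLN and iLN of WT, and the other TRAV4 forms 2.06, 2.77 and 1.91 in the same libraries. The TRAV4 chains of 5xFAD, all of non-reference forms, had 2.48, 2.56 and 2.33. In the CD4-titled library the order was the other way, with 2.02 for reference and 2.42 for other forms. In the mixed library the values were 2.54 and 1.5, the latter over 12 rearrangements. The TRAV4-3 and TRAV4-4/DV10 reference forms had other allele names in the CD4-titled and mixed libraries than in WT. The part of the calls in these values was not tested.

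The mixed library, labelled with both genotypes, held 5 contigs of form a and 13 non-matching TRAV4 contigs of 243, although form a had 41, 37 and 13 contigs in the 5xFAD libraries.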
